A study of Mus musculus with 39 samples.

Results

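The antigen presentation genes described here are the genes of the mouse major histocompatibility complex (MHC) and of the machinery that loads its molecules, as measured in epididymal adipose, the fat pad beside the epididymis of male mice. They were taken from the array's own gene names: every name that begins with H2-, together with Cd74, Ciita, B2m, Tap1, Tap2, Tapbp, Psmb8, Psmb9 and Psmb10. This gave 50 of the 29411 gene names and 74 of the 40628 probes on the array, and the brightest probe of a gene stood for it. There were 12 class II genes, 29 class I heavy chain genes, 7 genes of class I processing, and 2 genes, H2-Ke2 and H2-Ke6, that carry the H2- prefix but encode no MHC chain. The array annotation placed 36 of the 50 on chromosome 17, and 32 had a single probe.

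C57BL/6J mice, weaned at an age of 3 to 4 weeks, were given 1 of 5 diets. LFC was a low fat diet with 10% of calories from fat, and HFC was a high fat diet with 60% of calories from fat and more sucrose. HF5, HF20 and HF75 combined the high fat, high sucrose diet with KAL-1, an aqueous botanical formulation, at doses of 5, 20 and 75 µg in that order. There were 11 LFC arrays (days 1, 6, 10 and 14 and weeks 0, 3, 6, 9, 12, 15 and 18), 10 HFC arrays (the same without day 1), and 6 arrays of each KAL-1 diet (weeks 3 to 18). Weeks were counted after day 14, so that day 14 and week 0 are the same time on the diet. All groups were of 1 strain with no genetic change, and every diet with KAL-1 also carried the high fat and sucrose. Each diet and time had 1 one-colour Agilent array here, although the series is described as having 3 biological replicates, so time points served as the replicates. The number of animals behind an array was not stated. The tests therefore set a mean difference against the spread between these arrays, and not against that between animals of a group. Between diets it is the spread of the differences within time points. Within a diet it is the spread of arrays over time.

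MHC class I molecules present peptides made inside the cell. The immunoproteasome (Psmb8, Psmb9, Psmb10) cuts proteins, the transporter of Tap1 and Tap2 carries the peptides into the endoplasmic reticulum, Tapbp (tapasin) helps to load them, and the heavy chain reaches the cell surface together with beta-2 microglobulin (B2m). MHC class II molecules present peptides from material taken up by macrophages, dendritic cells and B cells, with Cd74 as the invariant chain that guards the groove, H2-DM as the peptide exchanger, H2-O as its inhibitor and Ciita as the transcriptional activator of the whole set. In obese adipose both arms are studied because macrophages and adipocytes themselves can present antigen to T cells there.

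Levels are given as log2 of the processed signal minus the 75th percentile of the same array, so that 0 is the 75th percentile. Genes that mark adipocytes had median levels of 3.2 to 6.49 on the arrays, well above the percentile, so that markers of fat were present. They do not tell one fat depot from another. At week 6 mesothelial markers were low on every diet but HF20, with the values given below beside H2-Oa. The LFC week 3 and HFC week 12 arrays stood apart from the other 37: 97.1% and 94.5% of their spots were called well above background against 53.7% to 79.6%, and 16431 and 10531 of their spots were outliers against 21 to 387. LFC week 3 also held the lowest level of all 39 arrays for H2-D1 (3.13), B2m (3.16), H2-T22 (0.21), Psmb8 (0.45), H2-Aa (−0.97) and H2-Ab1 (1.67). Results are given with all 39 arrays. Values without 1 time point, or without both of these arrays, are given beside them for the genes and classes where this is stated. Days 1 to 14 were scanned at other times than weeks 0 to 18, so that scan period and early days cannot be told apart. No scan date held arrays of more than 1 time point, so that scan date and time on the diet cannot be told apart either. At week 3 the LFC array was scanned on another date than the arrays of the other diets.

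Detection differed within the family. Of the 50 genes, 37 were well above background on at least 20 of the 39 arrays and 23 on all of them. The 13 others were H2-M1 and H2-M10.5 (on 0 arrays), H2-M10.4 (1), H2-M10.3, H2-M10.6, H2-M11, H2-T18 and H2-Eb2 (2 each), H2-T3 (3), H2-M10.1 and H2-M5 (7 each), H2-T3-like (10) and H2-Ea (17). All of these but H2-Eb2 and H2-Ea are non-classical class I genes. At the other end 11 genes had saturated spots. H2-K1 was saturated on 37 arrays, H2-D1 on 27, Cd74 on 26, H2-Q10 and H2-Q7 on 21, H2-Q2 on 19, H2-T23 on 11, H2-Q5 on 9, B2m on 8, H2-T10 on 2 and H2-Ab1 on 1. A saturated spot gives a lower bound, and its normalised value then follows the brightness of the array. Over 37 arrays the Pearson correlation of the level with the log2 75th percentile was −0.97 for the H2-K1 probe and 0.20 for a second H2-K1 probe that was never saturated, and it was −0.89 for the Cd74 probe and −0.25 for another Cd74 probe saturated on 1 array.

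Several heavy chain genes are close copies of each other, and their 60-base probes show how far they can be separated. The pairs below are printed because their levels moved together across arrays. Capitals mark the longest run of bases that both probes of a pair share.
H2-Q10: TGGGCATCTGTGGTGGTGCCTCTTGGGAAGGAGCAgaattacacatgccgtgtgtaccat
H2-Q5: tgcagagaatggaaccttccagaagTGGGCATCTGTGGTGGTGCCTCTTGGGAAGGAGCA
H2-D1: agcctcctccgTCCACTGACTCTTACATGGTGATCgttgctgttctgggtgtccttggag
H2-Q2: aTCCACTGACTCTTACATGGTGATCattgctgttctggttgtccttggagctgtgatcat
The H2-Q10 and H2-Q5 probes shared 35 bases and had a Pearson correlation of 0.91 over 37 arrays, and the H2-D1 and H2-Q2 probes shared 24 bases and had a correlation of 0.83. Only an unbroken run is counted, and the bases after it in H2-D1 and H2-Q2 are also nearly alike. The H2-Q7 and H2-T23 probes, not printed, shared 28 bases and had a correlation of 0.85. In all, 5 pairs of the brightest probes, of 9 genes, shared at least 20 bases. The longest run, 39 bases of the dim H2-T18 and H2-T3-like probes, went with a correlation of 0.48. The printed probes were also saturated, on 21 (H2-Q10), 9 (H2-Q5), 27 (H2-D1) and 19 (H2-Q2) arrays. Since the pairs were picked for moving together, the parts of shared bases and of saturation in their correlations were not tested. By its shared bases a level of H2-Q10, H2-Q5, H2-Q2, H2-D1, H2-Q7 or H2-T23 may hold signal from its copies, and these genes are uncertain as single genes.

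The next probe is printed because C57BL/6 mice carry an H2-Ea gene that is known not to be expressed, so that this probe has no intended transcript in these animals. It is in lower case throughout, since no part of it is marked.
H2-Ea: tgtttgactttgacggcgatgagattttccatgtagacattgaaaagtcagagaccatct

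Class II promoters are known for an X box and a Y box, the latter bound by NF-Y. The 150 bases before the annotated start (RefSeq, GRCm38.p6) are printed for H2-Aa and H2-Eb1, which encode classical chains, and for H2-DMb1 and H2-Oa, which encode a chain of the peptide exchanger and a chain of its inhibitor. Capitals mark the letters TGATTGG of the Y box and, further from the start site in H2-Eb1 and H2-DMb1, an X box motif, both searched on both strands.
H2-Aa (chr17:34287824-34287973, minus strand): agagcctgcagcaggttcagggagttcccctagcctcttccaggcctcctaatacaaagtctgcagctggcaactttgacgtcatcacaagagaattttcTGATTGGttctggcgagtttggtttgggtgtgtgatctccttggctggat
H2-Eb1 (chr17:34305717-34305866, plus strand): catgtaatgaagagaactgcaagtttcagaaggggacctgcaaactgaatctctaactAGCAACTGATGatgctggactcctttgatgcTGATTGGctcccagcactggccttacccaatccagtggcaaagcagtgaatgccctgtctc
H2-DMb1 (chr17:34153041-34153190, plus strand): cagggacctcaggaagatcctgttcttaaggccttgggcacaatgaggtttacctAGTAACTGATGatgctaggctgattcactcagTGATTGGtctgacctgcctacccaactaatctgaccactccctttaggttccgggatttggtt
H2-Oa (chr17:34092229-34092378, plus strand): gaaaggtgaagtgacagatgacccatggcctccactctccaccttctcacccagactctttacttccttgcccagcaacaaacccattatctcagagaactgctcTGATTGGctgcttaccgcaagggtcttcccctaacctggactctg
The Y box letters were in 7 of 8 class II, 13 of 20 heavy chain and 2 of 6 processing gene promoters, against 7.82% of all 32851 promoters of 300 bases. The X box motif, whose letters were chosen after these promoters had been seen, was in H2-DMb1, H2-Eb1 and H2-Eb2 of the class II genes, in 0 of the others, and in 0.298% of all promoters. The motif of an interferon-stimulated response element was in H2-T22, H2-T23 and B2m and in 3.44% of all promoters. TTCNNNGAA, the letters of a gamma activated site, were in H2-DMb2, H2-M11, H2-M3 and Psmb8 and in 8.3% of all. Of the 50 genes 35 had a promoter in the table. A match describes letters in the window and no bound site.

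The first question was whether the high fat diet changed these genes. No member passed the test between HFC and LFC over the 10 shared time points. Of 38 members tested, 0 passed an adjusted p of 0.05 and 0 an unadjusted one by limma with the time point as a block, where 0% and 3.05% of all 29168 probes did so. The methods' t-test also called 0, with 0 at an unadjusted p under 0.05, and the authors' deposited log2 differences called 0, with 1. The share of all probes at that unadjusted p was not counted for either. HFC was higher for 22 members and lower for 16. The median difference over the tested members was 0.10 on the log2 scale against 0.03 over all probes, beside a median SE of 0.32. Within the classes HFC was higher for 6 of 11 class II, 10 of 18 heavy chain and 5 of 7 processing genes. Each count of 11 class II genes, here and below, includes H2-Ea, whose probe has no intended transcript in this strain. The class medians per array leave H2-Ea out, as it was well above background on 17 of 39 arrays. In whole tissue, fewer cells of a type and less RNA per cell cannot be told apart, here and in what follows.

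**Figure D1:**
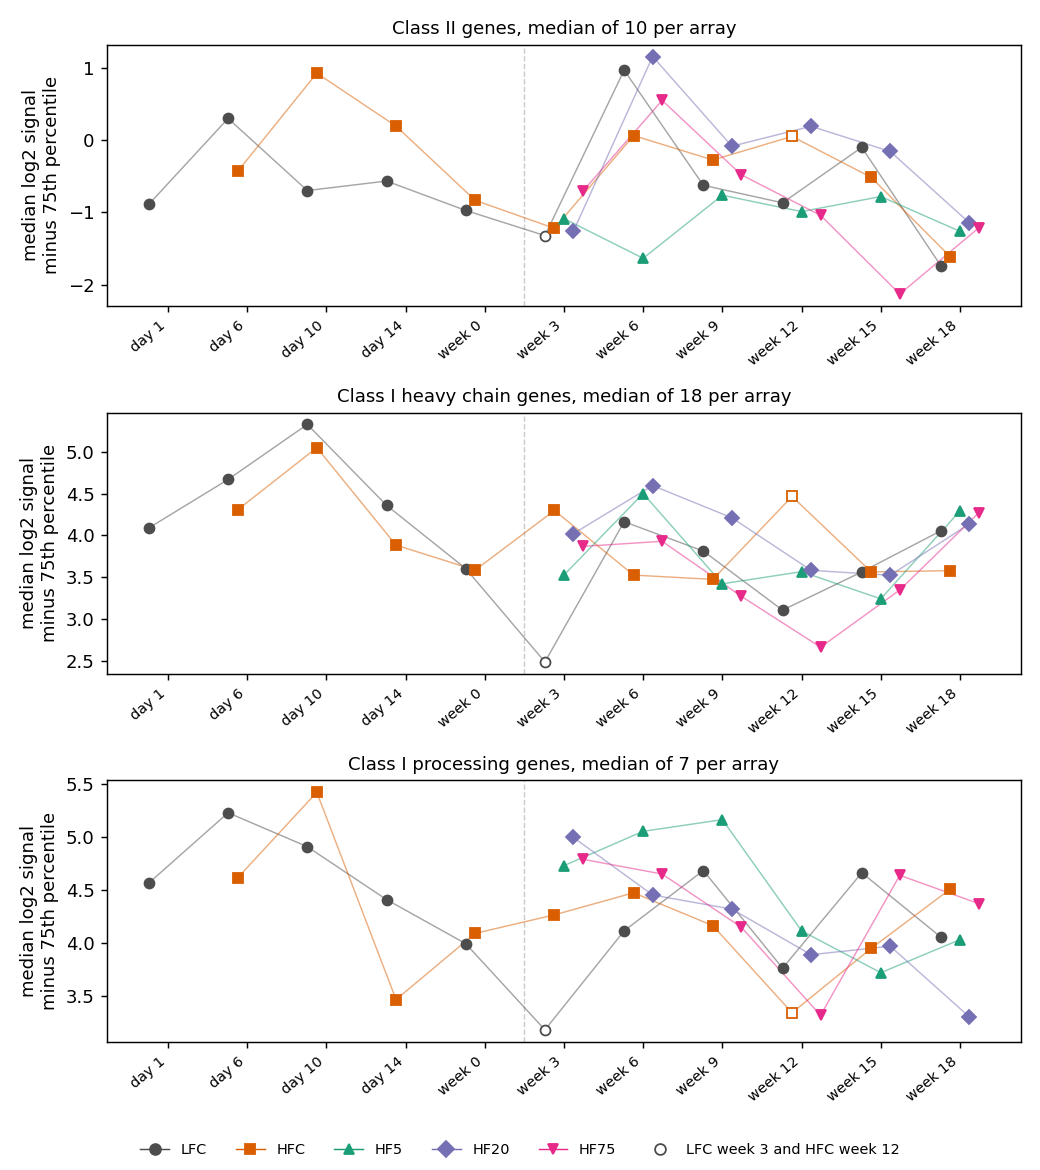
Median level of the class II (10 genes), class I heavy chain (18 genes) and class I processing (7 genes) members on each array, as log2 signal relative to the 75th percentile of the array, over time and by diet. The dashed line divides the early from the late arrays, open symbols are LFC week 3 and HFC week 12, and the diets overlapped in all 3 panels, with class II running from −2.13 to 1.16.

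The classical class II chains overlapped between diets. H2-Aa, the alpha chain of I-A, ranged from −0.97 to 3.33 with a median of 1.47 on LFC and from 0.38 to 3.76 with a median of 1.94 on HFC. H2-Ab1, its beta partner, ranged from 1.67 to 6.28 (median 4.75) on LFC and from 3.99 to 6.39 (median 4.88) on HFC. HFC minus LFC was 0.33 ± 0.44 (SE) for H2-Aa, higher at 6 of 10 time points, and 0.33 ± 0.36 for H2-Ab1, higher at 5 of 10. Neither difference exceeded its SE, and LFC week 3 was the lowest array of both genes. Without week 3 the differences were 0.05 for H2-Aa and 0.02 for H2-Ab1.

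H2-Eb1, the beta chain of I-E, was dim. It ranged from −5.95 to −3.06 (median −4.40) on 10 LFC arrays and from −5.48 to −3.07 (median −3.69) on 9 HFC arrays, 1 spot of each diet being an outlier and left out. The difference was 0.41 ± 0.27, with HFC higher at 5 of 8 time points, and it was −0.12 with normexp background correction. Cd74, the invariant chain, ranged from 4.92 to 7.19 (median 5.73) on LFC and from 5.43 to 7.0 (median 5.86) on HFC, but its brightest probe was saturated on 6 of 11 and 9 of 10 arrays, so that no fold is read from it. The Cd74 probe saturated on 1 array gave a difference of 0.21 ± 0.32, or of −0.004 without week 3.

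The 3 members with the smallest p in this comparison were Ciita, H2-M9 and H2-Ea. Ciita, the class II activator, ranged from −3.84 to 0.13 (median −2.19) on LFC and from −2.40 to 0.43 (median −1.68) on HFC, which was higher by 0.94 ± 0.44 and at 7 of 9 time points (limma, adjusted p = 0.998). The Ciita difference was 0.12 with normexp background correction and 1.5 with quantile scaling, and 0.58 without day 10. The highest LFC array, week 6, lay above all but 1 HFC array, day 10. H2-M9, a non-classical class I gene, differed by −0.73 ± 0.37 (adjusted p = 0.998 by limma), with HFC higher at 2 of 8 time points.

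H2-Ea, the alpha chain of I-E, had the widest spread of the members described. It ranged from −9.60 to −0.19 (median −4.01) on LFC and from −9.24 to −0.83 (median −6.69) on HFC, with a difference of −1.83 ± 1.03 (limma, adjusted p = 0.998) and HFC higher at 3 of 10 time points. Its probe, printed above, was well above background on 7 of 11 LFC, 4 of 10 HFC, 2 of 6 HF5, 1 of 6 HF20 and 3 of 6 HF75 arrays. Over 37 arrays its level had a Spearman correlation of 0.14 with that of H2-Aa, and of 0.50 with both H2-M9 and H2-DMb1. Many of these H2-Ea values lay near background, since its probe was well above it on 17 of 39 arrays. With the log2 75th percentile the Spearman correlation was −0.28 for H2-Ea, −0.43 for H2-M9 and −0.46 for H2-DMb1. The part of array brightness in these values was not tested.

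No class I gene passed the test either. H2-D1, a classical heavy chain, ranged from 3.13 to 6.96 (median 6.23) on LFC and from 5.43 to 6.58 (median 5.96) on HFC, with saturated spots on 7 arrays of each. H2-K1, the other classical heavy chain of this strain, ranged from 5.69 to 7.34 (median 6.58) on LFC and from 5.43 to 7.14 (median 6.13) on HFC, where all 10 spots were saturated. The second H2-K1 probe, never saturated, ranged from −0.11 to 5.21 (median 4.30) on LFC and from 3.38 to 5.30 (median 4.17) on HFC, with a difference of 0.17. Without week 3, when the second probe stood at its lowest on LFC, the difference was −0.29. The saturated probe (−0.30 ± 0.18) holds no fold.

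B2m ranged from 3.16 to 6.54 (median 5.77) on LFC and from 5.30 to 6.21 (median 5.71) on HFC. Tap1 ranged from 3.17 to 5.23 (median 4.41) on LFC and from 3.32 to 5.66 (median 4.21) on HFC. Psmb8, a catalytic subunit of the immunoproteasome, ranged from 0.45 to 5.23 (median 4.19) on LFC and from 3.18 to 6.14 (median 3.85) on HFC. HFC minus LFC was 0.09 ± 0.32 for B2m, −0.06 ± 0.19 for Tap1 and 0.13 ± 0.41 for Psmb8, and each group held values of the other. Without week 3 these values were −0.24 for B2m, −0.05 for Tap1 and −0.27 for Psmb8, so the signs of B2m and Psmb8 rested on that time point.

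**Figure D2:**
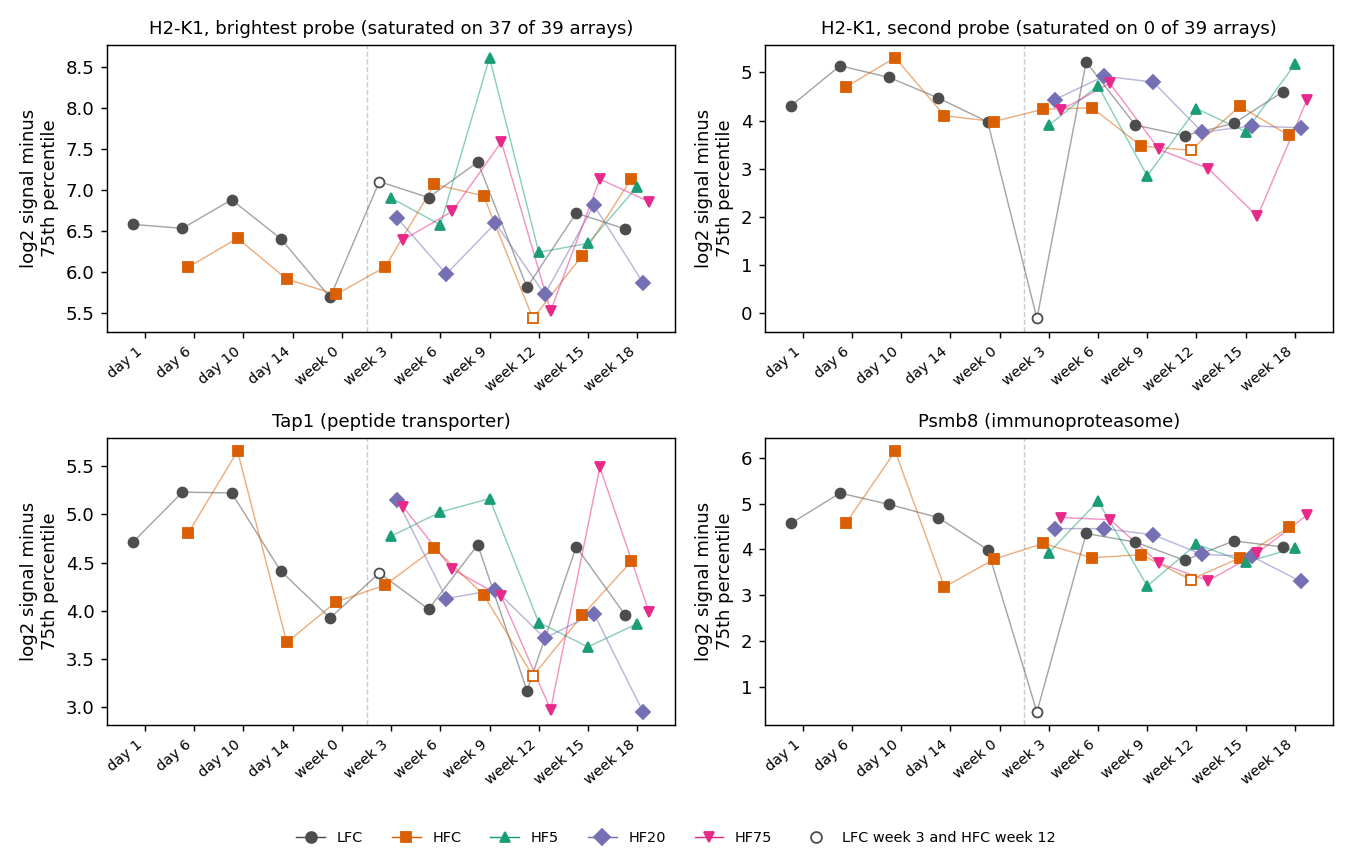
Levels of H2-K1 by its brightest probe and by a second probe, of Tap1 and of Psmb8 on each array, as log2 signal relative to the 75th percentile, over time and by diet. The brightest H2-K1 probe was saturated on 37 of 39 arrays and the second on 0, Psmb8 was highest at 6.14 on HFC day 10, and the diets overlapped in every panel.

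The class medians per array depended on the arrays that stood apart. The class II median was higher by 0.20 ± 0.77 (SD of 10 differences within time points) on HFC, at 7 of 10 time points, and by 0.12 without LFC week 3 and HFC week 12. The heavy chain median differed by 0.06 ± 0.84, higher at 3 of 10, and by −0.32 without them. The processing median differed by −0.07 ± 0.66, higher at 5 of 10, and by −0.17 without them. The median over all probes differed by 0.04 ± 0.18.

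The next comparisons asked whether KAL-1 changed these genes on the high fat diet. The 3 doses share the same HFC arrays, so their differences are not independent of each other. In each, 0 of 40 members passed the adjusted or the unadjusted threshold by limma, where 0% of 31450 probes passed the adjusted one and 3.42% (HF5), 4.84% (HF20) and 1.5% (HF75) the unadjusted one. The methods' t-test called 0 at every dose, with 1, 0 and 0 members at an unadjusted p under 0.05, and the authors' deposited differences gave the same counts. For both, the share of all probes at that unadjusted p was not counted. The median difference over members was 0.14 for HF5, 0.09 for HF20 and −0.10 for HF75 beside a median SE of 0.44, and over all probes −0.03, −0.07 and −0.01.

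Class II did not run in dose order. At 5 µg class II was higher than on HFC for 6 of 11 genes with a median difference of 0.01. At 20 µg it was higher for 6 of 11 with a median of 0.31, and at 75 µg for 3 of 11 with a median of −0.27. By array, the class II median differed from HFC by −0.50 ± 0.77 at 5 µg (higher at 2 of 6 time points), 0.37 ± 0.40 at 20 µg (5 of 6) and −0.25 ± 0.91 at 75 µg (3 of 6). These differences were within or near 1 SD of the spread between time points, and the differences between doses were not tested. Class II at 20 µg had a positive median with each scaling run, from 0.23 (normexp) to 0.47 (quantile), while it ran from −0.21 to 0.40 at 5 µg and from −0.27 to 0.01 at 75 µg. Scaling to the median of the array in place of the 75th percentile moved the median over all probes to 0.32 (HF5), 0.24 (HF20) and 0.34 (HF75), and class II at 75 µg was then higher for 6 of 11 genes, with a median of 0.01, still below that of all probes. With quantile scaling class II at 5 µg was higher for 4 of 11.

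The chains of class II showed this gene by gene. H2-Aa ranged from −0.12 to 2.04 (median 1.06) on HF5, from 0.88 to 3.91 (median 2.35) on HF20 and from −0.09 to 2.05 (median 1.32) on HF75. Its difference from HFC at 20 µg, 0.79 ± 0.55 (limma, adjusted p = 0.780, higher at 4 of 6 time points), was 1 of the 3 with the smallest p at that dose. The other 2 were the H2-DM chains: H2-DMb2 at 0.74 ± 0.44, higher at 4 of 6, and H2-DMa at 0.63 ± 0.39, higher at 4 of 5, both with an adjusted p of 0.780 by limma. Without week 6 these differences at 20 µg were 0.41, 0.44 and 0.29. At 5 µg the same 3 genes differed from HFC by −0.55 for H2-Aa, −0.66 for H2-DMb2 and −0.64 for H2-DMa.

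H2-Ab1 ranged from 4.04 to 5.95 (median 4.93) on HF5, from 4.29 to 6.21 (median 5.39) on HF20 and from 3.65 to 5.73 (median 4.74) on HF75. H2-Eb1 ranged from −6.04 to −3.51 (median −4.40), from −4.72 to −2.20 (median −3.86) and from −5.50 to −3.66 (median −4.76) on the same diets. Ciita ranged from −3.52 to −0.50 (median −2.32) on HF5, from −2.31 to 0.71 (median −1.43) on HF20 and from −4.49 to 0.25 (median −1.58) on HF75. For all of these genes HF20 had the highest median of the KAL-1 diets and the diets overlapped.

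Cd74 ranged from 5.88 to 8.61 (median 6.16) on HF5, from 5.60 to 6.53 (median 6.07) on HF20 and from 5.39 to 7.51 (median 6.38) on HF75, with 2, 5 and 4 of 6 spots saturated. H2-Ea ranged from −7.96 to −2.15 (median −6.61) on HF5, from −9.44 to −2.50 (median −8.43) on HF20 and from −9.51 to −1.85 (median −6.22) on HF75. The HF5 week 9 array, which held the highest Cd74, had the lowest 75th percentile of all 39 arrays, 119.5 against 347.5 to 1515, and neither its Cd74 nor its H2-K1 spot was saturated.

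H2-DMb1, a beta chain of the peptide exchanger, went another way than H2-DMa and H2-DMb2. It ranged from 0.56 to 4.20 (median 1.79) on HF5, from −3.50 to 2.05 (median 1.51) on HF20, from −0.42 to 2.13 (median 1.25) on HF75 and from −2.67 to 2.76 (median 0.73) on HFC. On HF5 it was higher than on HFC by 1.49 ± 0.79, at 5 of 6 time points (limma, adjusted p = 0.954), and by 0.75 without week 3. Its 4 lowest arrays were HF20 week 18 (−3.50), HFC week 3 (−2.67), HFC day 10 (−1.82) and HF20 week 6 (−1.74), and on these H2-Ea lay at −8.85, −8.58, −9.24 and −8.95. H2-Ea was not well above background on these 4 arrays, and it was as low on HF20 week 12 (−9.44) and HF75 week 12 (−9.51), where H2-DMb1 stood at 2.05 and 1.03.

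**Figure D3:**
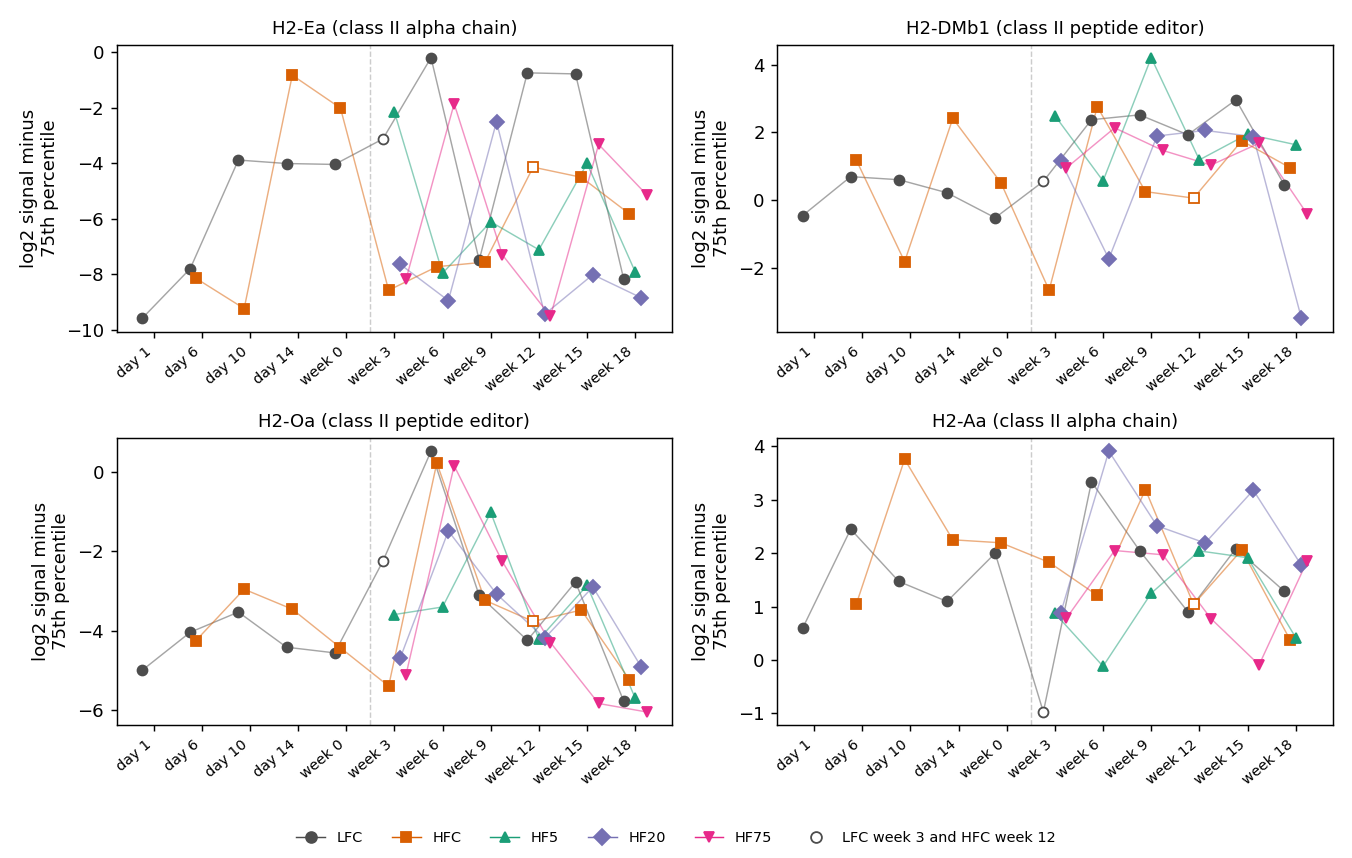
Levels of H2-Ea, H2-DMb1, H2-Oa and H2-Aa on each array, as log2 signal relative to the 75th percentile, over time and by diet. H2-Ea ran from −9.60 to −0.19, H2-DMb1 dropped to −3.50 on HF20 week 18, and H2-Oa was highest at week 6 on LFC, HFC and HF75.

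Class I genes with KAL-1 lay on both sides of HFC. Processing genes were higher than on HFC for 6 of 7 genes at each dose, with median differences of 0.23 (HF5), 0.13 (HF20) and 0.22 (HF75), and none passed the test. A second Tap1 probe, not counted there, had means of −1.4 (HF5), −0.24 (HF20) and −1.15 (HF75) against −0.64 on late HFC arrays. Its medians were −0.78, −0.04 and −1.25 against −0.59, so by that probe Tap1 was lower at 5 and 75 µg. The HF5 mean includes week 9 at −4.32, the array with the lowest 75th percentile of all. On HF5 the probe was well above background on 5 of 6 arrays. With normexp background correction processing genes at 5 µg were higher for 2 of 7. Heavy chains were higher for 14 of 20 at 5 µg (median 0.14), 10 of 20 at 20 µg (−0.02) and 7 of 20 at 75 µg (−0.12). With quantile scaling they were higher for 8, 13 and 5 of 20, and with scaling to the median for 18, 13 and 14 of 20. By array the processing median differed by 0.35 ± 0.58, 0.04 ± 0.68 and 0.20 ± 0.33, and the heavy chain median by −0.06 ± 0.77, 0.19 ± 0.73 and −0.26 ± 0.87. Without HFC week 12 the heavy chain values were 0.11, 0.41 and 0.05, and the processing value of HF20 was −0.07, so that 3 of these 6 changed sign with 1 array.

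At 5 µg the smallest p values were those of H2-Q8, a Qa region heavy chain, at 0.58 ± 0.29 and higher at 6 of 6 time points, and of Psmb10, an immunoproteasome subunit, at 0.52 ± 0.27 and higher at 5 of 6 (both with an adjusted p of 0.954 by limma). H2-Q8 ranged from 2.58 to 4.01 (median 2.91) on HF5 and from 2.13 to 2.82 on HFC from week 3 on, so that the groups overlapped. At 75 µg they were H2-M2 at −0.77 ± 0.55 (higher at 2 of 6), H2-Bl at −0.45 ± 0.39 (2 of 6) and B2m at 0.36 ± 0.36 (5 of 6), each with an adjusted p of 1 by limma. H2-M2 and H2-Bl are non-classical class I genes. H2-Bl without week 15, when HF75 stood at −1.04, differed by 0.05.

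B2m ranged from 5.18 to 6.39 (median 6.09) on HF5, from 5.77 to 6.17 (median 5.83) on HF20 and from 5.57 to 6.48 (median 6.06) on HF75. Tap1 ranged from 3.62 to 5.16 (median 4.33), from 2.95 to 5.15 (median 4.05) and from 2.97 to 5.49 (median 4.29) on these diets. Psmb8 ranged from 3.2 to 5.05 (median 3.98), from 3.3 to 4.46 (median 4.11) and from 3.32 to 4.75 (median 4.29). For each of these genes the medians of the 3 diets lay within the range of every other diet.

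H2-D1 ranged from 5.48 to 6.73 (median 6.46) on HF5, from 5.58 to 6.66 (median 6.08) on HF20, where all 6 spots were saturated, and from 5.30 to 6.69 (median 6.24) on HF75. H2-K1 by its brightest probe ranged from 6.24 to 8.61 (median 6.74), from 5.73 to 6.81 (median 6.29) and from 5.53 to 7.58 (median 6.80), and by its second probe from 2.85 to 5.17 (median 4.07), from 3.76 to 4.92 (median 4.16) and from 2.01 to 4.78 (median 3.81). The second probe differed from HFC by 0.22, 0.38 and −0.25 on HF5, HF20 and HF75. The first was −0.03 without week 18 and the last 0.15 without week 15.

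**Figure D4:**
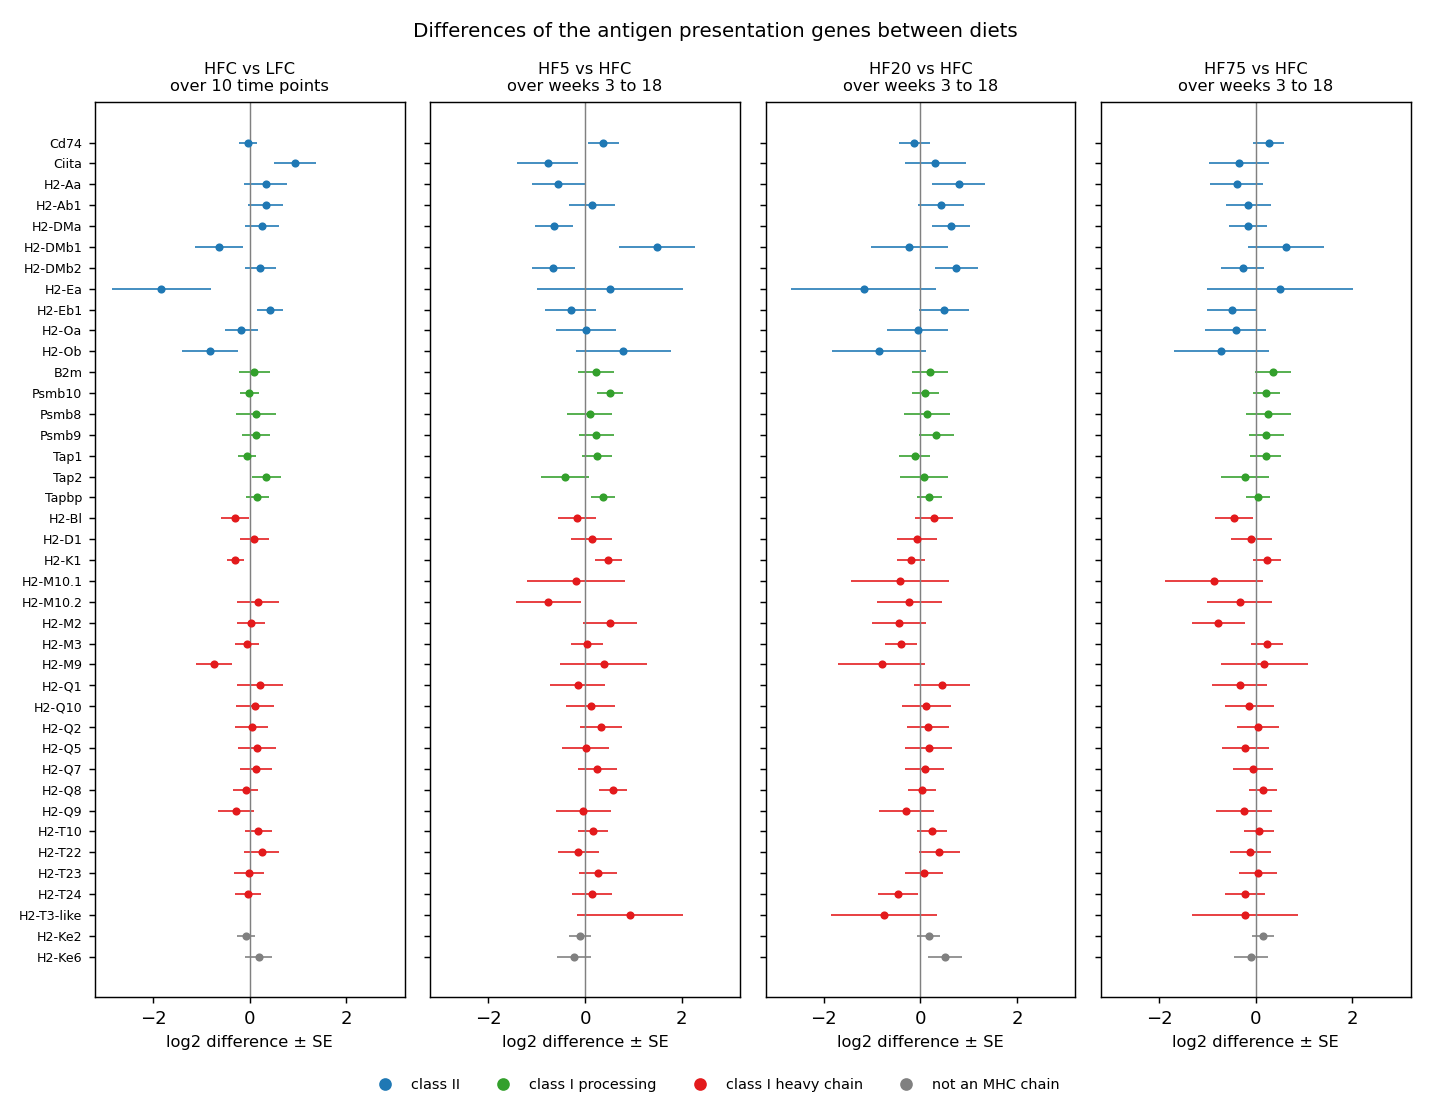
Difference of each tested member on the log2 scale, with its SE from limma, for HFC minus LFC and for each KAL-1 diet minus HFC. Differences ran on both sides of 0 in every panel, from −1.83 for H2-Ea to 1.49 for H2-DMb1, and no member passed the adjusted threshold.

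Change with time was the third question. Late arrays (weeks 3 to 18) were compared with early ones (days 1 to 14 and week 0) within LFC, 6 against 5, and within HFC, 6 against 4. Within LFC 0 of 38 members passed the adjusted threshold by limma, where 0.49% of 30418 probes did, and 3 of 38 (7.89%) passed the unadjusted one, where 5.52% of all probes did. Within HFC 0 of 37 passed either, where 0% of 29397 probes passed the adjusted and 17.3% the unadjusted threshold, so that the share of members was below that of all probes. A linear trend over days called 0 in each diet, with 2 members at an unadjusted p under 0.05 in each. The share of all probes under that p was not counted for the trend, so nothing is read from these members. Over all tested members the median difference was −0.24 within LFC (all probes −0.09) and −0.21 within HFC (all probes 0.02).

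Processing genes had lower levels late in both diets with all arrays, though within HFC this rested on day 10. All 7 were lower late within LFC (median −0.48) and all 7 within HFC (median −0.34), and 0 passed the test in either. The 7 were also lower late in both diets with quantile scaling, scaling to the median and normexp, with medians from −0.72 to −0.36, where the median over all probes ran from −0.26 to 0.31. Psmb8 differed by −1.20 ± 0.65 within LFC, below the early mean on 6 of 6 late arrays, and by −0.51 within HFC. Without LFC week 3 the Psmb8 difference within LFC was −0.59, and without HFC day 10, its highest array, that within HFC was 0.07. Psmb9, its partner subunit, differed by −0.78 ± 0.44 and −0.69 ± 0.40, below the early mean on 6 of 6 late arrays of each diet. Tap1 differed by −0.55 ± 0.38 and −0.41, and late and early arrays overlapped in each gene. Without HFC day 10 the differences within HFC were −0.26 for Psmb9 and −0.05 for Tap1, and without LFC week 3 that of Psmb9 within LFC was −0.44. By array the processing median differed by −0.54 ± 0.53 within LFC (the error here and below for array medians is the SD between arrays pooled over early and late) and by −0.28 ± 0.61 within HFC, and without LFC week 3 and HFC week 12 the differences were −0.37 and −0.13. Without HFC day 10 the array median within HFC differed by 0.06.

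A second probe of Tap1, named here after its values had been seen, separated further. It ranged from −0.26 to 1.61 (median 0.88) early and from −2.70 to 0.32 (median −0.75) late within LFC, and from 0.01 to 2.01 (median 0.49) early and from −1.22 to −0.16 (median −0.59) late within HFC. The differences were −1.78 ± 0.55 within LFC (limma, adjusted p = 0.450) and −1.39 ± 0.40 within HFC (limma, adjusted p = 0.211). In HFC the early and late arrays did not overlap, as held for 866 of 29397 probes tested (2.95%), and the brightest Tap1 probe overlapped in both diets.

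The heavy chains were lower late for 12 of 18 genes within LFC (median −0.35) and for 7 of 18 within HFC (median 0.07), or 14 of 18 within HFC with quantile scaling. By array the heavy chain median differed by −0.88 ± 0.64 within LFC, below the early mean on 6 of 6 late arrays, and by −0.39 ± 0.52 within HFC. H2-T22, a T region gene whose product binds gamma delta T cell receptors, differed by −1.03 ± 0.54 within LFC, below the early mean on 6 of 6 late arrays, and by −0.63 ± 0.34 within HFC, above it on 1 of 6 (limma, adjusted p = 0.340). Its early LFC arrays ran from 3.00 to 3.86 and its late ones from 0.21 (week 3) to 3.54. Its differences were −0.56 without LFC week 3 and −0.38 without HFC day 10. The spots of H2-D1, H2-Q10, H2-Q2, H2-Q7 and H2-K1 were all saturated on the early arrays of both diets, so that their early levels are lower bounds.

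Within LFC the 3 members that passed the unadjusted threshold were all higher late. H2-DMb1 ranged from −0.53 to 0.69 (median 0.21) early and from 0.45 to 2.96 (median 2.15) late, a difference of 1.69 ± 0.51 and above the early mean on 6 of 6 late arrays (limma, adjusted p = 0.428). H2-M9 ranged from −8.41 to −4.86 (median −5.68) early and from −5.47 to −1.75 (median −4.01) late, a difference of 2.69 ± 0.85 (limma, adjusted p = 0.518). H2-M2 ranged from −4.45 to −3.39 (median −3.65) early and from −4.20 to −0.25 (median −1.80) late, a difference of 1.88 ± 0.62 (limma, adjusted p = 0.575). Early and late overlapped for all 3.

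Their levels went with the brightness of the array. Over 37 arrays the Pearson correlation of the level with the log2 75th percentile was −0.52 for H2-DMb1, −0.31 for H2-M9 and −0.57 for H2-M2, and the percentile ran from 655.9 to 1276 on the early and from 410.3 to 1184 on the late LFC arrays. The part of brightness in these differences was not tested. Within HFC the differences were −0.05 ± 1.02 for H2-DMb1, 2.25 for H2-M9 and 1.27 ± 0.69 for H2-M2 (limma, adjusted p = 0.343 for the last), so H2-M9 and H2-M2 lay higher late in both diets. That of H2-DMb1 was 0.59 without HFC week 3 and −0.85 without HFC day 10.

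The member with the smallest p within HFC was H2-DMa, the alpha chain of the peptide exchanger. It ranged from −0.89 to 1.86 (median −0.25) on the 4 early arrays and from −1.85 to −0.54 (median −0.76) on 5 late ones, a difference of −1.06 ± 0.54 (limma, adjusted p = 0.324) and below the early mean on 5 of 5. Its highest level was on day 10, without which the difference was −0.48. Class II genes were lower late for 7 of 10 within HFC (median −0.29) and higher late for 7 of 11 within LFC (median 0.45). By array, though, the class II median differed by −0.05 ± 0.79 within LFC and −0.55 ± 0.72 within HFC, or −0.23 without HFC day 10. So the median of the gene differences and the difference of the array medians had opposite signs within LFC, where quantile scaling also gave 5 higher and 6 lower, and no direction is read there.

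Whether the change with time differed between the diets was tested directly, and no member passed. Of 38 members 0 passed the adjusted and 0 the unadjusted threshold by limma, where 0% and 5.14% of 29168 probes did. The smallest p values were those of H2-DMb1 (−1.60 ± 0.96, adjusted p = 0.841), H2-Ea (−2.85 ± 2.01, 0.846) and H2-Oa (−0.90 ± 0.67, 0.856), all lower late on HFC relative to LFC. All were counted in class II, but the probe of H2-Ea has no intended transcript in this strain. It was well above background on 17 of 39 arrays. That of H2-Oa was −0.38 without week 3. Of the heavy chains 16 of 18 and of the processing genes 7 of 7 lay on the positive side, with medians of 0.50 and 0.25 against 0.15 over all probes, and class II genes had a median of −0.60. By array the heavy chain value was 0.57 ± 0.83, and −0.08 without LFC week 3 and HFC week 12, so that its sign rested on those arrays.

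H2-Oa, the alpha chain of the H2-DM inhibitor and known from B cells, was marked by week 6. Its group medians ran from −4.70 (HF75) to −3.49 (HF5), while at week 6 it stood at 0.52 on LFC, 0.22 on HFC, 0.15 on HF75, −1.49 on HF20 and −3.40 on HF5. B cell markers (Ms4a1, Cd79a and others) had medians of 0.09, −1.26, −0.005, −2.23 and −4.50 on those arrays in the same order of diets, and lymph node stroma markers 1.72, 0.89, 2.16, −2.73 and 0.001. The 3 arrays high in H2-Oa were thus also those highest in B cell markers at week 6. Mesothelial markers had medians of −4.4, −5.4, −6.4, −0.07 and −6.9 on the 5 arrays in that order, against −3.6 to 1.6 at other times. The part of these cell types in the level of H2-Oa was not tested. Week 6 arrays were scanned in 2 batches, LFC, HFC and HF5 in 1 and HF20 and HF75 in the other, and each batch held a high array.

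Across arrays the classical class II genes moved together. Over the 37 arrays the level of H2-Aa had a Spearman correlation of 0.83 with H2-DMb2, 0.82 with H2-Ab1, 0.77 with H2-Eb1, 0.72 with H2-DMa, 0.55 with H2-Oa and 0.53 with Ciita, and of 0.04 with H2-DMb1. In class I, Psmb8 went with Psmb9 (0.81), H2-Bl (0.76) and H2-T22 (0.74), and H2-Q10 with H2-Q7 (0.95) and H2-Q2 (0.93), whose probes were saturated on 21, 21 and 19 arrays. The points share slides, scan times and the scaling to the 75th percentile, and these are descriptions over arrays of all diets and times.

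The class II median went with markers of other cell types. Over 37 arrays its Pearson correlation was 0.77 with the T cell marker median, 0.58 with B cell, 0.53 with macrophage and 0.40 with dendritic cell markers, and 0.26 with the class I heavy chains. The T cell markers (8 of 8 tested) summed to 0.662 to 1.24 times the 75th percentile on early LFC arrays, 0.847 to 6.96 on early HFC, 1.09 to 10.7 on late LFC, 0.417 to 5.11 on late HFC, 0.522 to 4.17 on HF5, 0.816 to 4.55 on HF20 and 0.446 to 3.99 on HF75. All 8 T cell markers were lower than on HFC on HF5 (median −0.77) and HF75 (−0.50), and 5 of 8 higher on HF20 (0.07). The class II median against HFC had the same signs by array (with scaling to the median it was 0.15 on HF75), and the part of T cells in it was not tested.

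**Figure D5:**
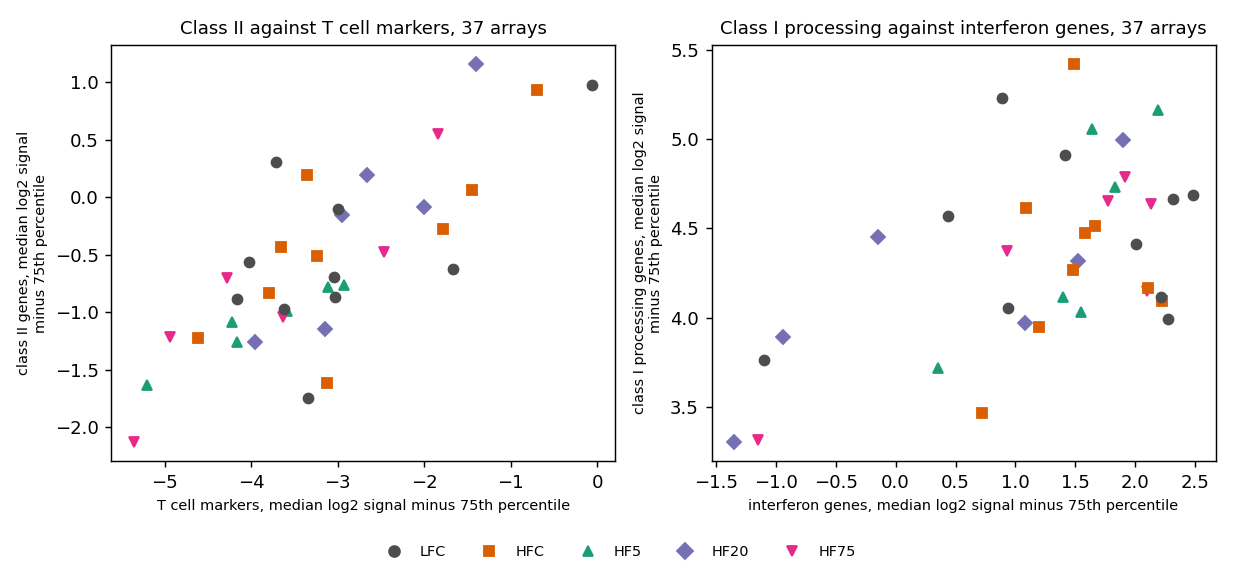
Class II median against the T cell marker median, and class I processing median against the median of interferon genes, on 37 arrays, each as log2 signal relative to the 75th percentile and coloured by diet. Pearson correlations were 0.77 and 0.55, with arrays of all diets along each cloud.

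The class I processing median went with the median of a list of interferon genes, with a Pearson correlation of 0.55 over 37 arrays, and with the heavy chain median at 0.50. Beside genes that interferon induces, the list holds Ifng itself and its receptor chains Ifngr1 and Ifngr2. Of 15 interferon genes tested, 0 passed the adjusted threshold in any comparison. HFC was higher than LFC for 12 of 15 with a median of 0.12, and 15 of 15 lay on the positive side in the difference of time changes, with a median of 0.74. By array the list median was −0.48 on LFC and 1.48 on HFC at week 3, and −1.1 and 1.08 at week 12. Those were the lowest LFC medians of the list. Elsewhere HFC was higher at days 6 and 10 and week 18, and lower at day 14 and weeks 0, 6, 9 and 15. The list was not refitted without weeks 3 and 12, so no direction is read from these counts. Within LFC 11 of 15 were lower late with a median of −0.47, among them Usp18 at −1.36 (adjusted p = 0.454 by limma) and Irf7 at −1.54 (0.586). Within HFC the median was 0.02, with Irf7 at −1.32 (adjusted p = 0.224 by limma). At 20 µg 12 of 15 were lower than on HFC with a median of −0.54, and Ifi44 stood at −1.32 (adjusted p = 0.780 by limma).

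Other genes of class I loading and control (15 tested, among them Pdia3, Mr1 and Psme1) and partners of class II (11 tested, among them Ctss, Ifi30, Cd80 and Itgax) also gave 0 calls in every comparison. Itgax, an integrin of dendritic cells and macrophages, was higher on HFC than on LFC by 1.11 (limma, adjusted p = 0.998), at 8 of 10 time points, and Ifng by 0.62 (adjusted p = 0.998 by limma). Pdia3, an oxidoreductase of the loading complex, differed by −0.94 between HF20 and HFC, lower at 5 of 5 time points (limma, adjusted p = 0.780). At 5 µg the 2 with the smallest p were Ifngr2 at 0.48 and Psme1 at 0.35, at 75 µg Itgax at −1.05 and Psme1 at 0.30, and in the difference of time changes Cxcl10 at 2.81 and Cd80 at −0.91. Mr1, which presents vitamin metabolites to T cells, differed by −0.89 late within HFC (limma, adjusted p = 0.218), below the early mean on 6 of 6 late arrays. Class I loading genes were higher than on HFC for 10, 11 and 12 of 15 at 5, 20 and 75 µg, and class II partners for 7, 4 and 1 of 11.

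Among the marker lists 1 gene passed the adjusted threshold. Cd209a, a dendritic cell lectin, was higher late within LFC by 2.31 ± 0.45 (limma, adjusted p = 0.0462), above the early mean on 6 of 6 late arrays. In the comparison within LFC all 8 B cell (median 1.49), all 8 T cell (1.1) and all 8 dendritic cell (0.51) markers lay higher late. All 5 mesothelial markers lay lower (−1.76), and class II genes were higher for 7 of 11. Within HFC 7 of 10 macrophage markers (median −0.30), 7 of 8 adipocyte (−0.79) and 5 of 5 mesothelial markers (−1.55) were lower late, beside 7 of 10 class II genes, while all 7 B cell markers tested (0.74), 5 of 8 dendritic cell markers (0.19) and 8 of 11 class II partners (0.36) lay higher. Between HFC and LFC the mesothelial markers were higher for 5 of 5 (0.86) and the epididymal ones lower for 5 of 5 tested (−2.0), with 0 called. The part of these in the members' levels was not tested.

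H2-Ke2 and H2-Ke6, a prefoldin subunit and a steroid dehydrogenase that take their prefix from their place in the region, passed the test in 0 of the 7 comparisons. The difference of H2-Ke2 ran from −0.25 to 0.17 and that of H2-Ke6 from −0.48 to 0.51.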

How the data were processed

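Total RNA of 39 epididymal adipose samples was labelled with Cy3 and hybridised to one-colour Agilent arrays. The deposited scanner files hold the processed signal intensity of 45220 spots, made by the authors with Feature Extraction 10.5.1.1 per the file headers (9.1 in the submitters' processing notes), with background subtracted and no scaling between arrays. A deposited table of log2 differences between samples and LFC, made by the authors in GeneSpring per the study's methods, was used as an alternative. The array annotation refers to mm9. Groups came from the diet labels and time points, and 0 columns of other samples were found.

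Here outlier spots were left out, spots of a probe were averaged, and log2 of the signal minus the array's 75th percentile was taken. limma 3.58.1 in R 4.3.3 was fitted over all probes, two-sided with Benjamini-Hochberg adjustment at 0.05, with the time point as a block between diets. The block pairs arrays of the same sampling time given in the labels. Probes had to be well above background on 10 of 20 arrays (HFC against LFC), 6 of 30 (KAL-1 diets), 5 of 11 (LFC) or 5 of 10 (HFC). Class medians took genes well above background on at least 20 arrays and were given no p. Sequences and figures used Python 3.11.15, pandas 2.3.3, numpy 2.4.6 and matplotlib 3.10.9. The fits were tested on simulated data.

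The members, classes and lists were chosen with earlier results of these data known. Named genes were a list of classical chains, key processing genes and H2-Ea, any member past the threshold, and the 3 members (for other pathway genes the 2) with the smallest p in each comparison. For these arrays the number of time points limits the precision, and no depth applies. Alternatives were quantile and median scaling, normexp with an offset of 50, other filters, array weights, other blocks, the methods' t-test and leaving out each time point.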

Additional observations from a re-analysis of the deposited data

Results flagged for a closer look

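In 8 of the 96 groups of 4 to 10 arrays examined, the highest or lowest array lay far from the others of its diet by Dixon's criterion. The groups were HFC and each KAL-1 diet, for 21 named genes and the class medians. LFC, with 11 arrays, was not examined, so the LFC week 3 array could not be listed. Chance alone gives about 1 in 20 such groups. Psmb8 stood at 6.14 on HFC day 10, where the next HFC array was at 4.57, and H2-DMa at 1.86 on the same array, where the next was at −0.08. H2-Oa stood at 0.22 on HFC week 6, where the next was at −2.95. Cd74 and H2-K1 both stood at 8.61 on HF5 week 9, where the next were at 6.56 and 7.04. This array had the lowest 75th percentile of all, 119.5, and neither spot was saturated there. B2m stood at 6.17 on HF20 week 3, where the next was at 5.89, and H2-Ea at −2.50 on HF20 week 9, where the next was at −7.64. H2-Q8 was low at 1.38 on HF75 week 12, where the next was at 2.67.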

How the results depend on the processing

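The count of members called was 0 in every comparison with all 39 arrays and under each alternative run but 1, limma array weights within HFC. There 4 of 37 members passed the adjusted threshold, where 8032 of 29397 probes (27.3%) did: H2-Ob at 2.75, H2-M9 at 3.61, H2-T22 at −0.94 and H2-M2 at 1.74. At an unadjusted p under 0.05 there were 7 members, and the share of all probes was not counted there. With array weights H2-Ea stood at 0.12 between HFC and LFC, against −1.83. With week 0 as the only early array H2-T22 stood at 0.10 within HFC, against −0.63. H2-Bl on HF75 ran from −0.801 to 0.0547 as each week was left out, the latter without week 15, against −0.45. Scaling to the median moved the class I processing value of HF75 to 0.60 from 0.20. With no filter on dim probes the heavy chain median, over 29 genes, was −1.49 (HF20), −1.44 (HF75), 1.98 (late within LFC) and 1.88 (late within HFC). With probes saturated on at most 2 arrays, an alternative chosen after seeing the data, it was 0.25 over 13 genes late within HFC, against −0.39. The cause of these changes was not tested.

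Leaving out each time point in turn kept the count at 0. The class II median then ran from 0.04 to 0.32 (HFC minus LFC), from −0.67 to −0.26 (HF5), from 0.23 to 0.45 (HF20) and from −0.41 to 0.02 (HF75). The heavy chain median ran from −0.14 to 0.14 (HFC minus LFC) and from −1.08 to −0.65 (late within LFC).

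Without the replicate block for time the counts were 0 of 38 (HFC) and 0 of 40 (each KAL-1 diet). The slide as a random block had an estimated correlation of −0.87 between HFC and LFC and −0.20 in the fit of all diets. Between HFC and LFC the shared slides held both diets of weeks 0, 3 and 18, and the time point was already a block. A negative estimate follows from that design, so the first value does not describe the slides. Saturated spots limit H2-K1, Cd74 and H2-D1, and the levels of 13 dim genes lie near background on most arrays.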
